A study of Mus musculus with 12 samples.

Results

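The hepatic RNA of the major urinary protein genes was followed in 12 mouse liver RNA-seq libraries. The members are the 10 genes Mup1, Mup2, Mup3, Mup7, Mup10, Mup11, Mup12, Mup17, Mup20 and Mup21, of 16346 genes in the expression table. They were chosen by name with their levels and the difference between the genotypes in these same libraries already known, so levels and genotype differences are given as a description. Where members past the threshold of the all-gene fit are counted between genotypes, the count stands beside that of all genes, describes the choice and is no evidence of a difference. Comparisons of the diets were not used in that choice and were tested.

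Each library came from the liver of a 12-week-old C57BL6J mouse, with 2 mice in each of 6 groups. Control mice carried floxed Med13 alleles (Med13 fl/fl) and no Cre. MED13-LKO mice carried the same alleles together with Alb-Cre, a Cre recombinase driven by the albumin promoter and therefore active in hepatocytes, so that liver cells of other types keep Med13. MED13 is a subunit of the kinase module of Mediator, through which DNA-bound factors act on transcription. In each genotype 1 group was fasted for 16 h, 1 was fed chow with 30% sucrose in the drinking water for 4 h after the fast, and 1 was fed chow with 30% fructose in the same way. The fed mice were killed later in the day than the fasted mice, so feeding and time of day cannot be told apart.

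Major urinary proteins are small lipocalins, secreted proteins that fold into a barrel around a hydrophobic pocket. Hepatocytes of male mice make them in large amounts, and they pass through the blood into the urine, where they bind volatile pheromones and release them slowly. Their transcription is known to depend on the pulsatile growth hormone secretion of males, which acts through the growth hormone receptor and STAT5. Mup20 encodes darcin, a male pheromone in its own right. Mup1 has been studied as a circulating regulator of glucose and lipid metabolism.

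The deposited values are normalized counts, in which the authors had already corrected for sequencing depth. They summed to between 21062200 and 24152900 in the control libraries and to between 17309200 and 18738600 in the libraries labelled MED13-LKO. Med13 itself was not lower in the latter, ranging from 578 to 796 in the 6 controls and from 646 to 1055 in the 6 libraries labelled MED13-LKO. The table has no value per exon, so it holds no check of the deletion, and every direction between genotypes below is between libraries as labelled. The Y-linked genes Ddx3y, Kdm5d, Uty and Eif2s3y were present in all 12 libraries, summing to 3031 to 3547 normalized counts in controls and 3253 to 3692 in the libraries labelled MED13-LKO. Averaged over diets, 1493 genes were called higher and 1634 lower in the libraries labelled MED13-LKO. After rescaling all libraries to equal totals outside the Mup family these counts were 5975 and 498, and the median of all genes moved from 0.01 to 0.26 on the log2 scale.

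All 10 genes lay on the minus strand of chromosome 4 (mm10, GENCODE M21) within 2.08 Mb, between positions 60066469 and 62150863. Mup7 had the lowest coordinates (60066469 to 60070475) and Mup21 the highest (62147932 to 62150863), with Mup10 at 60578260 to 60582199, Mup20 at 62050234 to 62054158 and Mup3 at 62083476 to 62087342. The coding sequences formed a group of 7 near-identical genes (Mup1, Mup2, Mup7, Mup10, Mup11, Mup12 and Mup17), which shared 98.3% to 99.6% of aligned bases with each other. Mup3, Mup20 and Mup21 were 82.6% to 91.3% identical to those 7 and 87.0% to 94.7% identical among themselves. Of the 552 columns in the alignment of all 10 coding sequences, 19 varied among the 7. The stretch of 60 bases below, from exon 2 of each gene and away from alignment gaps, holds 3 of those 19 columns and shows how little sequence separates members whose RNA levels differed widely. Capitals mark bases that differ from the commonest base among the 7 genes.
Mup10: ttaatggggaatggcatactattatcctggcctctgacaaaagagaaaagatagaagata
Mup7: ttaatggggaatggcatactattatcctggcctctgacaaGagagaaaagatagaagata
Mup17: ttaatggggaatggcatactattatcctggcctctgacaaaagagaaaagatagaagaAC
Mup20: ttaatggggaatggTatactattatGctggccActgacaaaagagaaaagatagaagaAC
Mup3: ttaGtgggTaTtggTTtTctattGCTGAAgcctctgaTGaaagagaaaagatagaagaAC
In the coding sequence of Mup10 these are bases 98 to 157, at positions 60581594 to 60581653 of chromosome 4. Mup10 had 0 capitals, Mup7 had 1, Mup17 had 2, Mup20 had 5 and Mup3 had 16.

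Such similarity bears on how reads were divided between the genes. Of the 31-base subsequences in the annotated transcripts of a member, between 29.3% (Mup3) and 92.1% (Mup12) also occurred in another Mup gene. The number found in no other Mup gene ranged from 71 in Mup12 to 775 in Mup3. Mup7 had 106, Mup17 had 124 and Mup10 had 228. Values of single members among the 7 near-identical genes are therefore uncertain, and sums over the members depend less on this division.

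Promoter windows were at hand for 7 of the 10 members in RefSeq sequences of GRCm38.p6 (Mup2, Mup3, Mup7, Mup10, Mup11, Mup17 and Mup21). The 200 bases from 250 to 51 before the RefSeq start are shown for Mup10, whose RNA level overlapped between genotypes, and for Mup2 and Mup17, which had lower values in all libraries labelled MED13-LKO. They lie on the minus strand at chr4:60582206-60582405 for Mup10, chr4:60139907-60140106 for Mup2 and chr4:61595883-61596082 for Mup17, and overlap no annotated Mup exon, although that of Mup2 lies within the annotated Mup2 gene (60135932 to 60154289). Capitals mark a base that differs from the same base in both of the other windows.
Mup10: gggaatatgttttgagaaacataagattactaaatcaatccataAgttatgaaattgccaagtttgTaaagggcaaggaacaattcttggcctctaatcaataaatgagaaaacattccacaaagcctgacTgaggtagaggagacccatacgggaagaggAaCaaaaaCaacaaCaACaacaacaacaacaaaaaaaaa
Mup2: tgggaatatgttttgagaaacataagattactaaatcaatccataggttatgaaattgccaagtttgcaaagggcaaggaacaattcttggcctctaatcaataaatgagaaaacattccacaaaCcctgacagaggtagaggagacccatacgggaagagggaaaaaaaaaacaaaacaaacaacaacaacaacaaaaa
Mup17: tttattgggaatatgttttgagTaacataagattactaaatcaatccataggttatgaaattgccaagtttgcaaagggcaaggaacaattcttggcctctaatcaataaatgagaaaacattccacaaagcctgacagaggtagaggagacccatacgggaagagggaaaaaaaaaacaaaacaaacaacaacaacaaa
Mup10 had 9 such bases, Mup2 had 1 and Mup17 had 1. Most of those in Mup10 fell in the stretch of A and C repeats near the start. Over the whole 300-base windows, Mup10 was 94.3% identical to Mup2 and 94.6% to Mup17, while Mup2 and Mup17 were 98.3% identical. Mup10 was 96.3% identical to Mup7 over 161 aligned bases and 94.5% to Mup11 over 272. The part of these differences in the RNA levels was not tested. A search on both strands for TTCNNNGAA, the palindrome that STAT5 binds, found it in 0 of the 7 members' windows and in 2726 of 32851 promoter windows of all genes (8.30%), which says only that these letters are not in these windows.

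In fasted control liver, Mup7 had the highest level per kilobase of transcript, with a mean of 453622 normalized counts per kilobase. It was followed by Mup3 at 195849, Mup20 at 163854 and Mup11 at 162468, and the mice of neighbouring genes among these last 3 overlapped. Mup17 and Mup1 followed at 27255 and 22076 and also overlapped, then Mup12 at 6894, Mup21 at 3626, Mup10 at 2621 and Mup2 at 1426, where no neighbours overlapped. In fasted liver labelled MED13-LKO the order was different, with Mup20 first at 66172, then Mup3 at 36588, Mup11 at 17046, Mup10 at 3708 and Mup7 at 2255. Mup12 was last at 205. Between these ends came Mup21 at 1586, Mup17 and Mup1 at 616 and 554, which overlapped, and Mup2 at 397.

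**Figure D1:**
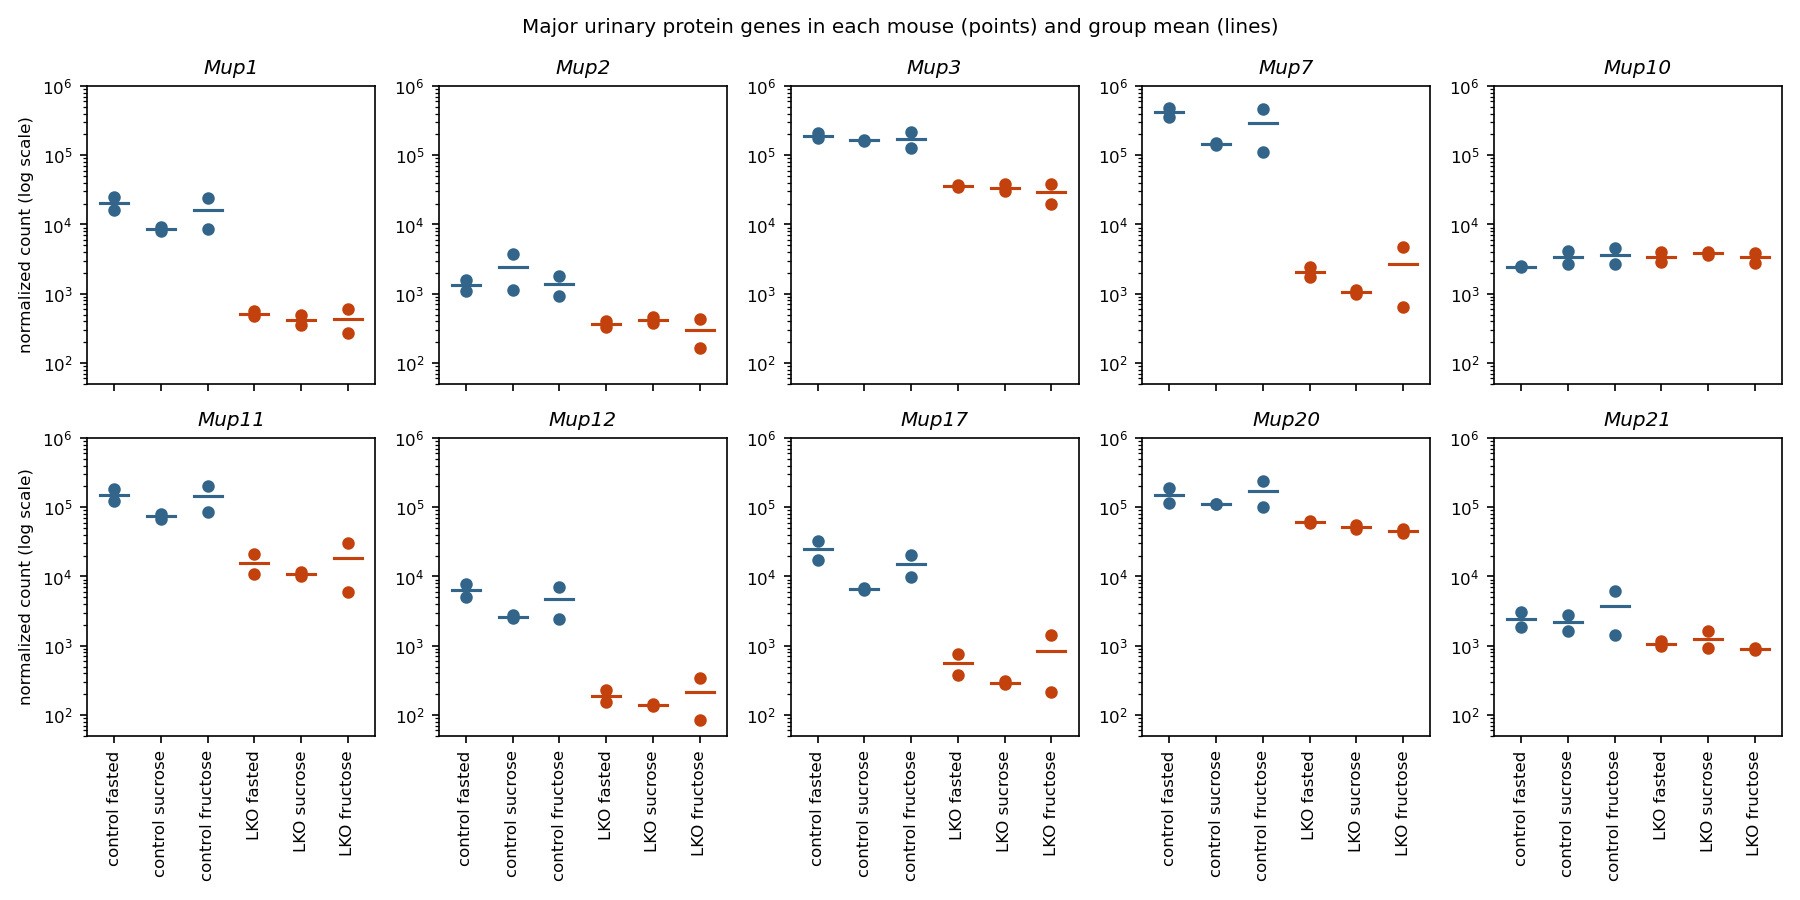
Normalized counts of the 10 major urinary protein genes on a log axis, one panel per gene, with groups on the horizontal axis, points for single mice and lines for group means of 2 mice. All control mice sit above all mice labelled LKO for 8 genes, while the ranges of Mup10 (2390 to 4613 and 2778 to 3991) and Mup21 (1437 to 6116 and 869 to 1618) overlap.

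Mup7 showed the widest gap between genotypes. Fasted controls had 358023 and 482992 normalized counts, sucrose-fed controls 151567 and 142469, and fructose-fed controls 467425 and 111473. Among libraries labelled MED13-LKO the fasted mice had 1727 and 2454, the sucrose-fed mice 1114 and 1001, and the fructose-fed mice 649 and 4685. The lowest control mouse was thus 23.8-fold above the highest mouse labelled MED13-LKO. On the log2(normalized count + 1) scale, the difference was -7.66 ± 0.81 (SE, 2 mice per group) after fasting. It was -7.12 ± 0.81 for sucrose and -7.03 ± 0.81 for fructose. The fructose value rested on mice far apart and was -8.46 without MED13-LKO fructose mouse 2 and -5.61 without mouse 1. In bulk liver RNA, fewer cells of a type and less RNA per cell cannot be told apart.

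Mup1, Mup12 and Mup17 formed a middle tier. Mup1 ranged from 8115 to 24967 in controls (median 12558) and from 267 to 601 in libraries labelled MED13-LKO (median 484). Mup12 ranged from 2414 to 7685 (median 3933) and from 84.8 to 346 (median 149), and Mup17 from 6397 to 33098 (median 13696) and from 214 to 1441 (median 342). The groups did not overlap for any of these 3 genes, and medians were 26.0-fold, 26.5-fold and 40.0-fold higher in controls. Averaged over diets, the log2 difference was -4.94 ± 0.27 for Mup1, -4.63 ± 0.35 for Mup12 and -4.88 ± 0.42 for Mup17.

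Among the remaining members that did not overlap, Mup11 ranged from 67479 to 202063 in controls and from 6025 to 30581 in libraries labelled MED13-LKO, a 9.22-fold difference of medians. Mup3 ranged from 126751 to 217340 and from 19873 to 38290, a 4.80-fold difference. Mup2 ranged from 934 to 3729 and from 167 to 466, a 3.42-fold difference. Mup20, the darcin gene, ranged from 102041 to 242517 and from 42740 to 64257, a 2.18-fold difference. These genes kept a larger part of their control level, from 10.5% for Mup11 to 40.4% for Mup20 in the fasted state, against 0.50% for Mup7.

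The ranges of Mup10 and Mup21 over all diets overlapped between genotypes. Mup10 had 2390 and 2470 normalized counts in fasted controls and 3991 and 2883 in fasted mice labelled MED13-LKO. The sucrose-fed pairs were 2646 and 4070 against 3680 and 3974, and the fructose-fed pairs 4613 and 2655 against 2778 and 3929, so that both fasted mice stood above both fasted controls and the fed mice were intermixed. The log2 difference of Mup10 was 0.48 ± 0.28 after fasting, 0.22 ± 0.28 for sucrose, -0.08 ± 0.28 for fructose and 0.21 ± 0.16 averaged over diets. With equal totals outside the Mup family these became 0.75, 0.47, 0.18 and 0.47, so that its sign with fructose turned. In that setting Mup10 was called higher averaged over diets (adjusted p = 0.0297 by limma), where 6473 of all genes were called in either direction. Whether Mup10 counts as different between genotypes thus depends on the scaling. Mup21 had 1847 and 3063 normalized counts in fasted controls, 2821 and 1620 with sucrose and 6116 and 1437 with fructose. The mice labelled MED13-LKO had 1170 and 978 when fasted, 915 and 1618 on sucrose and 869 and 924 on fructose, so both controls were higher within each diet. It differed by -1.23 ± 0.33 averaged over diets.

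**Figure D2:**
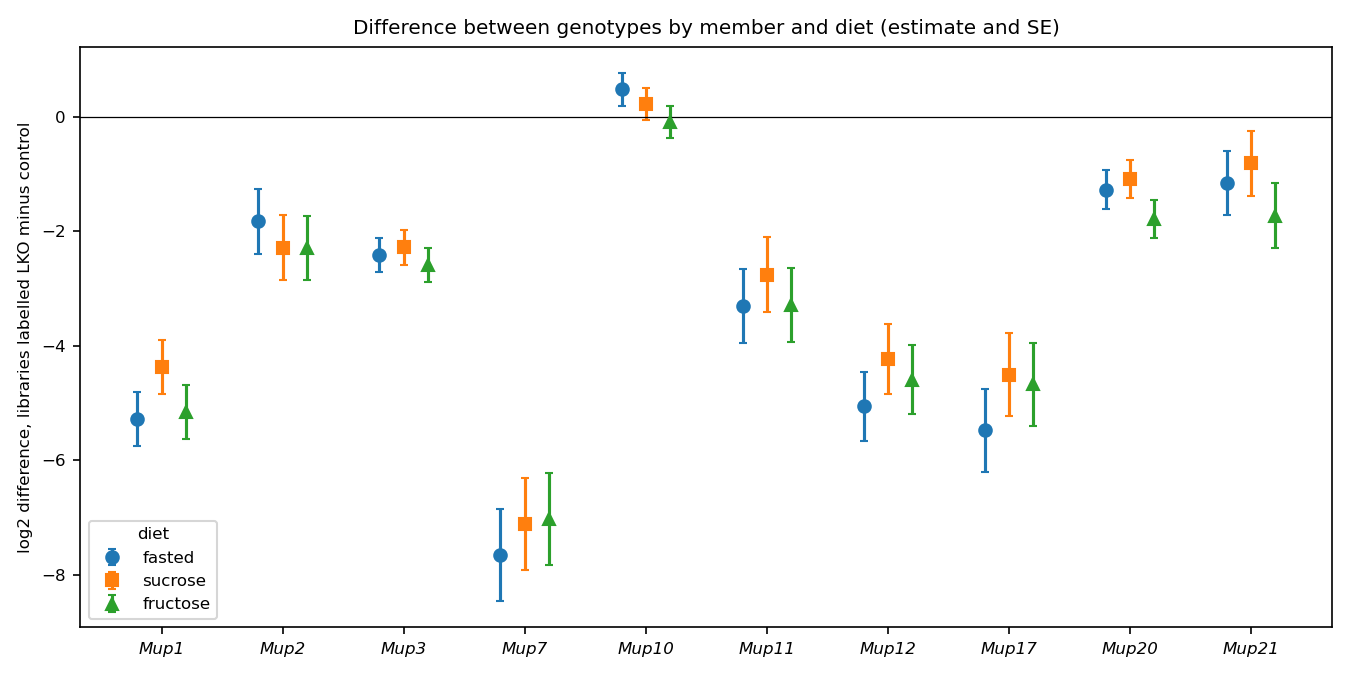
Log2 difference of normalized counts, libraries labelled LKO minus control, on the vertical axis for each of the 10 genes and each diet, with bars of 1 SE from the fit of all 12 libraries. Mup7 sits between -7.66 and -7.03, Mup10 within 0.5 of 0, and the other 8 genes between -5.48 and -0.81.

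By adjusted p under 0.05 in the limma fit, 7 of 10 members were called lower in libraries labelled MED13-LKO in the fasted state, where 4.86% of all tested genes were. The counts were 7 of 10 with sucrose (background 3.33%), 8 of 10 with fructose (background 3.95%) and 9 of 10 averaged over diets (background 13.2%), with 0 members called higher. In 8 of 10 members all 6 control libraries lay above all 6 libraries labelled MED13-LKO, against 4.93% of tested genes. Because the members were chosen with this difference known, these counts describe the choice. Leaving out a mouse took the count with sucrose to as few as 4 (without MED13-LKO sucrose mouse 1) and that with fructose to 5 (without MED13-LKO fructose mouse 1). The fit of only the 4 fructose libraries called 1 member (Mup1).

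The span of the genotype difference lay mostly within the 7 near-identical genes. Averaged over diets their log2 differences ran from -7.27 (Mup7) to 0.21 (Mup10), with a median of -4.63. The 3 more distant members Mup3, Mup20 and Mup21 ran from -2.43 to -1.23. The median over all 10 members was -2.77, and over all genes tested it was 0.01. Leaving out each mouse in turn, Mup7 stayed between -7.74 and -6.79, Mup17 between -5.34 and -4.43, and Mup10 between 0.07 and 0.34.

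Summed over the 10 members, fasted controls had 817052 and 1132340 normalized counts, sucrose-fed controls 514416 and 527903, and fructose-fed controls 1193550 and 452899. The sums in libraries labelled MED13-LKO were 113095 and 129920, 96183 and 112360, and 73667 and 129985. No library of 1 genotype reached the range of the other. Mean sums were 8.02-fold higher in controls in the fasted state, 4.998-fold with sucrose and 8.08-fold with fructose. As a share of all normalized counts, the 10 genes took 2.15% to 5.34% of a control library and 0.42% to 0.75% of a library labelled MED13-LKO. Every Mup gene in the table together took 3.14% to 7.01% and 0.59% to 1.15%.

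**Figure D3:**
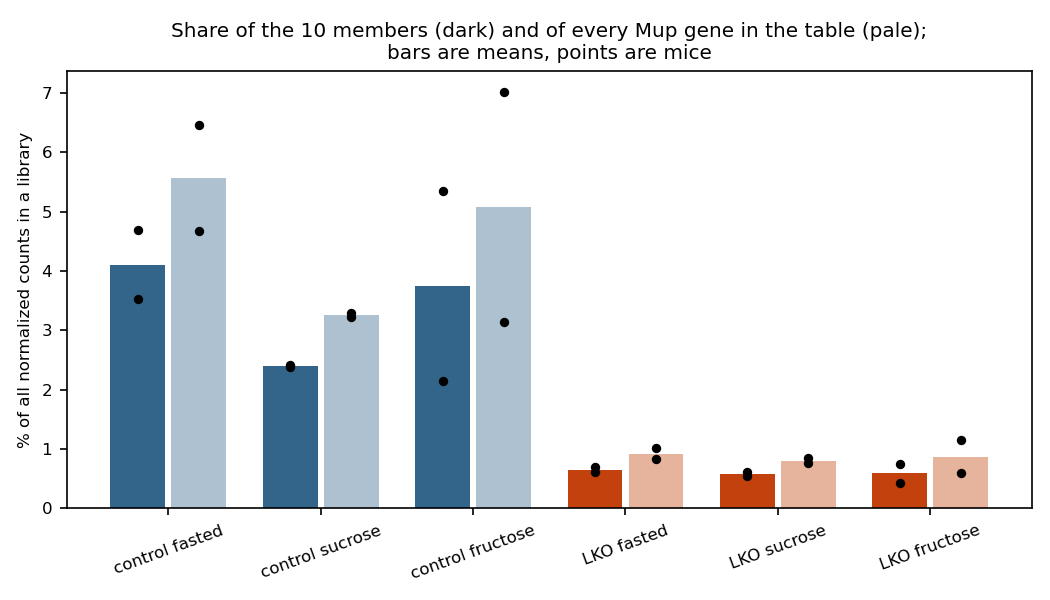
Share of all normalized counts in a library, in percent, taken by the 10 members (dark bars) and by every Mup gene in the table (pale bars) in the 6 groups, with bars for the mean and points for the 2 mice. Members took 2.40% on average in sucrose-fed controls and 0.58% in sucrose-fed mice labelled LKO, and the 2 fructose-fed controls stood apart at 5.34% and 2.15%.

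The make-up of the sum differed as well. Mup7 made up 24.6% to 43.8% of the members' sum in controls and 0.88% to 3.60% in libraries labelled MED13-LKO. Mup20 made up 14.3% to 22.5% and 37.5% to 58.0%, and Mup10 0.22% to 0.77% and 2.22% to 3.83%. Mup3 overlapped, with 18.2% to 31.9% and 27.0% to 33.7%.

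The feeding comparison asked whether members changed within hours of a sugar-rich meal after the fast. In control liver, 0 of the 10 members were called in the fit of all 12 libraries. Both sucrose-fed mice had lower values than both fasted mice for Mup1, Mup3, Mup7, Mup11, Mup12, Mup17 and Mup20. The share of all genes separated in this way was not counted. With 2 mice per group and members that share sequence, this list only describes the values. Mup7 had 358023 and 482992 normalized counts when fasted and 151567 and 142469 with sucrose, a log2 difference of -1.50 (95% confidence interval -3.30 to 0.29, adjusted p = 0.283 by limma). Mup17 had 17433 and 33098 when fasted and 6397 and 6883 with sucrose, a difference of -1.86 (-3.48 to -0.23, adjusted p = 0.151). Mup1 had 15962 and 24967, then 8115 and 9154, a difference of -1.21 (-2.27 to -0.16, adjusted p = 0.150). Mup12 had 5082 and 7685, then 2475 and 2785, a difference of -1.25 (-2.60 to 0.10, adjusted p = 0.235). The abundant Mup3 and Mup20 differed less, by -0.23 (-0.90 to 0.44, adjusted p = 0.679) and -0.42 (-1.17 to 0.33, adjusted p = 0.478), and Mup11 by -1.003 (-2.45 to 0.44, adjusted p = 0.375).

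In the limma fit of all 12 libraries, 0 of 10 members were called between sucrose-fed and fasted controls, with 2 at an unadjusted p under 0.05 (Mup1 and Mup17), where 8.57% of all tested genes were called. The call depended on the libraries that set the spread. Without the 4 fructose libraries, an alternative added after seeing the data, 4 members were called lower, with adjusted p = 0.00199 for Mup7, 0.0106 for Mup12, 0.0130 for Mup1 and 0.0133 for Mup17. Over the 8 alternatives that keep all mice of these groups the adjusted p ran up to 0.323, 0.269, 0.177 and 0.175 for these genes. In the fit of only the fasted and sucrose-fed controls 5 members were called lower, those 4 and Mup11 (adjusted p = 0.0384, up to 0.426 in the others). In both of these smaller fits the number of all genes called stayed within 1.5 times of the 1060 called with all 12 libraries. Leaving out single libraries of the 12, Mup17 was called without MED13-LKO fructose mouse 1 or mouse 2, and over all 12 such fits its adjusted p ran from 0.0297 to 0.475. Mup2 and Mup10 had positive differences of 0.65 (-0.60 to 1.91) and 0.43 (-0.19 to 1.06), Mup21 one of -0.15 (-1.41 to 1.10), and none of these 3 was called in any of these fits.

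In libraries labelled MED13-LKO, 0 of 10 members were called between sucrose-fed and fasted mice, 0 at an unadjusted p under 0.05, against 5.71% of all genes called. Mup7 had 1727 and 2454 normalized counts when fasted and 1114 and 1001 with sucrose, a log2 difference of -0.96 (95% confidence interval -2.76 to 0.83, adjusted p = 0.552). It was called lower without the 4 fructose libraries (adjusted p = 0.0194) and in the fit of only these 2 groups (adjusted p = 0.0199), with adjusted p up to 0.586 in the other alternatives. In both of these smaller fits the number of all genes called stayed within 1.5 times of the 706 called with all 12 libraries. Mup17 differed by -0.88 (-2.50 to 0.74) and the other 8 members by -0.46 to 0.19.

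With fructose, 0 of 10 members were called against the fasted state in controls, where 5.60% of genes were, and 0 of 10 in libraries labelled MED13-LKO, where 6.53% were. The limma fit gave 0 members at an unadjusted p under 0.05 in either genotype. Differences in controls ran from -0.87 for Mup7 (95% confidence interval -2.66 to 0.93) to 0.53 for Mup10 (-0.10 to 1.15). In libraries labelled MED13-LKO they ran from -0.46 for Mup2 (-1.71 to 0.80) to 0.05 for Mup17 (-1.57 to 1.67). The interval of Mup7 in controls held the value of -1.50 seen with sucrose, so that a change of that size was not detectable here.

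**Figure D4:**
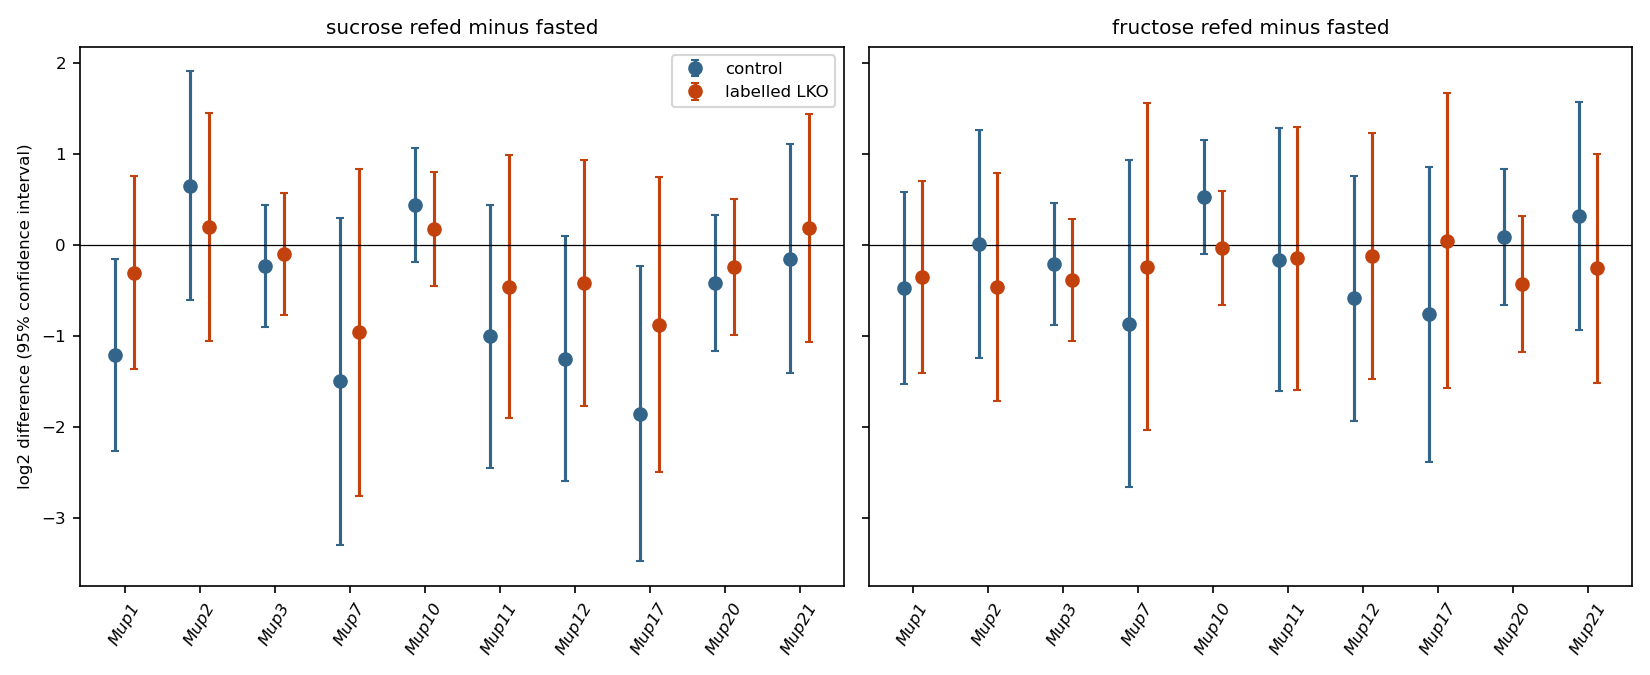
Log2 difference between sugar-fed and fasted mice on the vertical axis for each of the 10 genes, in controls and in mice labelled LKO, with sucrose on the left and fructose on the right. Bars are 95% confidence intervals from the fit of all 12 libraries, and with sucrose in controls the intervals of Mup1 (-2.27 to -0.16) and Mup17 (-3.48 to -0.23) lie below 0.

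The sugars were compared with each other within each genotype. Between fructose and sucrose 0 of 10 members were called in controls (0.0404% of genes) and 0 of 10 in libraries labelled MED13-LKO (0.0404% of genes), with 0 at an unadjusted p under 0.05 in either by limma. In controls Mup17 differed by 1.10 (95% confidence interval -0.53 to 2.72), Mup11 by 0.84 (-0.61 to 2.29) and Mup1 by 0.74 (-0.32 to 1.80). Mup3 differed by 0.02 (-0.65 to 0.69).

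The feeding response itself was compared between genotypes by the interaction term. For sucrose 0 of 10 members were called (0.146% of genes) and for fructose 0 of 10 (0.0243% of genes), with 0 at an unadjusted p under 0.05 by limma. The half-width of the 95% confidence interval of these terms was 0.89 for Mup10 and 2.54 for Mup7 on the log2 scale, so that the size of unequal response that could be detected differed between members. The drop with sucrose that the smaller fits called for Mup1, Mup11, Mup12 and Mup17 in controls is therefore not shown to differ between genotypes.

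Mice of 1 group often differed in the same direction across members. Control fructose mouse 1 was higher than mouse 2 in 10 of 10 members, by up to 4.25-fold (Mup21, 6116 and 1437). MED13-LKO fructose mouse 2 was higher than mouse 1 in 10 of 10, by up to 7.21-fold (Mup7, 649 and 4685). Control fasted mouse 2 was higher in 10 of 10 members by up to 1.90-fold (Mup17). In the sucrose groups 6 of 10 (control) and 8 of 10 (labelled MED13-LKO) were higher in mouse 2, with the largest difference 3.33-fold for Mup2 in controls. The members share sequence and libraries, so these counts are not independent.

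The remaining family was examined for how far the genotype difference reached. GENCODE M21 places 48 Mup genes on chromosome 4, 22 of them protein coding, and the table held 37, made up of 21 coding genes and 16 pseudogenes. Of the 11 coding genes that are not members, 7 had all control libraries above all libraries labelled MED13-LKO, against 4.93% of tested genes. Mup19 had 98620 to 257619 normalized counts in controls and 3325 to 20125 in libraries labelled MED13-LKO. Mup14 had 28823 to 86769 and 1048 to 6144, Mup15 had 5846 to 26886 and 77.9 to 1412, and Mup16 had 4323 to 10712 and 1223 to 3796. The less abundant Mup9, Mup8 and Mup13 had medians of 2189, 318 and 75.2 in controls and of 168, 32.6 and 33.8 in libraries labelled MED13-LKO. Mup15 and Mup19 have no 31-base subsequence of their own among Mup genes, so their values rest on the division of shared reads. Mup16 has 33 of its own, Mup13 has 48, Mup8 has 66, Mup14 has 149 and Mup9 has 226. Mup18, described below, has 62. The counts of these genes are therefore not independent of the members.

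Mup18 was the abundant gene that stood beside Mup10. It had 26626 to 39473 normalized counts in controls and 22707 to 35860 in libraries labelled MED13-LKO, and differed by -0.03 ± 0.12 on the log2 scale averaged over diets, a value that turned to 0.23 with equal totals outside the Mup family. Mup4, Mup5 and Mup6 had medians under 10 in both genotypes (1.68, 8.71 and 6.67 in controls) and did not enter the fit. Of the 16 pseudogenes, 5 entered the fit and 3 had all controls above all libraries labelled MED13-LKO, against 4.93% of tested genes. Of these, Mup-ps7 and Mup-ps17 had low values, at most 7.55 and 4.18 normalized counts in libraries labelled MED13-LKO. Across the 13 Mup genes outside the member list that entered the fit, 11 were called lower averaged over diets (13.2% of all genes). The count was also 11 with equal totals outside the Mup family, where 498 of 12388 genes tested were called lower. In any feeding, sugar or interaction comparison 0 of the 13 were called by limma with all 12 libraries.

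**Figure D5:**
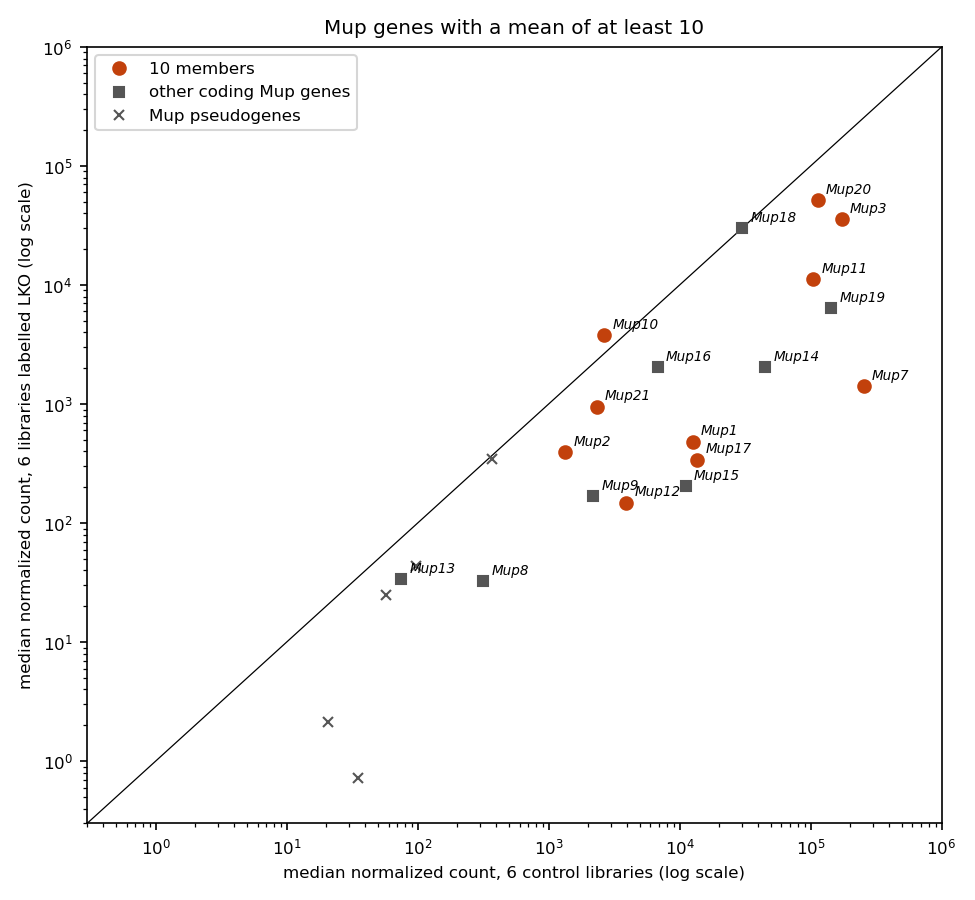
Median normalized count in 6 control libraries (horizontal, log axis) against the median in 6 libraries labelled LKO (vertical, log axis) for the Mup genes with a mean of at least 10, with the line of equal values. Members and the other coding Mup genes lie below the line except Mup10 (2651 and 3804) and Mup18 (29929 and 30244), and Mup7 (254795 and 1421) lies far below it.

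Of 35 tested genes that are not Mup genes but lie among or within 2 Mb of the annotated Mup genes, 6 were called higher and 6 lower averaged over diets. Their median log2 difference was -0.02. Among all genes 12.1% were called higher and 13.2% lower. The differences of these neighbours averaged over diets ran from -1.01 (Col27a1) to 0.93 (Zfp618). None was as far from 0 as the average of Mup7, Mup1, Mup17, Mup12, Mup11, Mup3, Mup2, Mup20 or Mup21. In the fasted state Orm2 (-1.36) was further from 0 than Mup20 (-1.27) and Mup21 (-1.15), as was Zfp618 in the other direction. With sucrose Col27a1 (-1.09) was further than Mup21 (-0.81). With fructose no neighbour (-1.28 to 0.86) reached Mup20 (-1.78) or Mup21 (-1.72). The members were chosen with their genotype difference known, so this comparison is a description.

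Genes of the growth hormone pathway were read beside the members. This and the following gene lists were chosen with earlier results of these data known, so their genotype counts and adjusted p-values are a description. Of 17 genes listed, 16 were tested, of which 3 were called lower and 1 higher averaged over diets by limma, where 13.2% and 12.1% of all genes were called in each direction. Ghr, the growth hormone receptor, had 11046 to 12670 normalized counts in controls and 7326 to 8686 in libraries labelled MED13-LKO (log2 difference -0.54 ± 0.05, adjusted p = 3.25e-05). Igf1, the main endocrine product of growth hormone in liver, differed by -0.65 ± 0.06 (adjusted p = 4.54e-05). Among the most abundant genes of the list that passed no threshold, Nr3c1, the glucocorticoid receptor, differed by -0.01 ± 0.07 and Hnf4a, a hepatocyte transcription factor, by -0.14 ± 0.06. The other called genes and Stat5b are named after their values were seen. Cish, a feedback inhibitor induced by STAT5, differed by -1.03 ± 0.18 (adjusted p = 0.00273), with ranges that overlapped (103 to 980 and 66.1 to 676). Cux2, a repressor of male-biased genes that female liver expresses, was higher, with 56.9 to 116 normalized counts in controls and 159 to 239 in libraries labelled MED13-LKO (1.31 ± 0.14, adjusted p = 0.000151). Stat5b differed by 0.20 ± 0.11 (adjusted p = 0.193). The median over the list was -0.08. With equal totals outside the Mup family 6 genes of the list were called higher and 3 lower and its median was 0.18. In that setting 5975 of 12388 genes tested were called higher and 498 lower, and the median of all genes was 0.26. Ghr, Igf1 and Cish were still called lower there (-0.28, -0.39 and -0.77), Nr3c1 and Stat5b were called higher (0.25 and 0.46), and Hnf4a changed sign (0.12).

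Other genes whose expression is known to differ between male and female liver were read in the same way. Their lists too were chosen with earlier results known, so the calls below are no independent evidence. Of 13 male-biased genes, 7 were called lower and 0 higher averaged over diets, with a list median of -1.27, where 13.2% and 12.1% of all genes were called. Serpina1e, a protease inhibitor, differed by -2.57 ± 0.31, Cyp2d9 by -0.84 ± 0.09 and Slco1a1, an organic anion transporter, by -1.27 ± 0.16. Gstp1 passed no threshold at -0.26 ± 0.14. Cyp4a12a, Cyp4a12b and Ugt2b38, named after their values were seen, differed by -0.05, 0.15 and 0.31, so the list did not move as 1. Selenbp2, named also for its likeness to the members below, differed by -5.67 ± 0.42, with 1543 to 13872 normalized counts in controls and 50.8 to 70.6 in libraries labelled MED13-LKO. Of 17 female-biased genes, 10 were tested and 7 were called higher and 0 lower, with a list median of 0.86. Both counts were the same with equal totals outside the Mup family, with medians of -1.01 and 1.12. Of all 12388 genes tested in that setting, 498 were called lower and 5975 higher, with a median of 0.26. Cux2 is in this list too. Cyp2a4, a steroid hydroxylase, had 11.2 to 39.6 normalized counts in controls and 2256 to 6576 in libraries labelled MED13-LKO (log2 difference 7.78 ± 0.21, adjusted p = 1.16e-08). Prlr, the prolactin receptor, differed by 0.57 ± 0.17, Fmo2 by 0.75 ± 0.16 and Abcd2 by 1.48 ± 0.20. Cyp2b9 and Cyp17a1, named after their values were seen, differed by 0.09 and 0.20. Cyp2b13, Cyp3a41a, Cyp3a44, Cyp3a16, Sult3a1 and Hao2 had means under 10 and were not tested, and Sult2a1 was not in the table. The highest values of these untested genes were 4.82 normalized counts in controls (Cyp3a44) and 15.8 in libraries labelled MED13-LKO (Cyp3a41a). The female-biased list thus did not move as 1 either.

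Other lipocalins made by liver served as a comparison within the protein fold. Of 9 listed, 8 were tested, of which 6 were called lower and 1 higher averaged over diets (13.2% and 12.1% of all genes), with a median of -0.39. With equal totals outside the Mup family 3 were called lower and 1 higher, the median was -0.13 and C8g changed sign (0.04). There 498 of 12388 genes tested were called lower and 5975 higher, with a median of 0.26. Rbp4, which carries retinol, differed by -0.38 ± 0.06, Ambp by -0.40 ± 0.05, Orm1 by -0.44 ± 0.10 and C8g by -0.22 ± 0.04. Lcn2, an acute phase lipocalin, was the gene of this list called higher (1.37 ± 0.30) and is named after its value was seen. So are Apom and Orm2, which differed most among those lower, by -0.998 and -0.93, and Orm3, which differed by 0.47. With equal totals outside the Mup family Apom and Orm2 were still called lower (-0.74 and -0.67). In none of the interaction terms was a gene of these lists called.

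The 5 genes outside the family whose log2 values were most like the members' sum over the 12 libraries, among 8840 with a mean of at least 100, were Serpina1a (Pearson r = 0.986), Selenbp2 (0.982), mt-Nd3 (0.976), Ybx3 (0.9747) and Serpina1e (0.974). The libraries fall into the 2 genotypes and share normalization, so these coefficients contain the genotype difference. Over the 6 control libraries alone they were 0.84, 0.82, 0.88, 0.87 and 0.84, and over the 6 libraries labelled MED13-LKO 0.87, 0.91, 0.21, 0.75 and 0.73. Serpina1a had 96923 to 121765 normalized counts in controls and 66247 to 74786 in libraries labelled MED13-LKO.

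Hepatocyte markers checked the labelled tissue. Of 8 markers, 7 were in the table and their sum was 2469000 to 3100770 normalized counts in controls and 1886550 to 2247040 in libraries labelled MED13-LKO, with 0 markers of the 7 at 0 everywhere. Averaged over diets 6 of the 7 were called lower (13.2% of all genes), with a median log2 difference of -0.44. The 4 most abundant were Alb (-0.45 ± 0.11), Apob (-0.08 ± 0.07, not called), Apoa1 (-0.36 ± 0.10) and Ttr (-0.44 ± 0.06). With equal totals outside the Mup family 2 of the 7 were called lower and 1 (Apob) higher, and the median was -0.18. There 498 of 12388 genes tested were called lower and 5975 higher, with a median of 0.26. Kupffer cell markers (6 of 6 in the table) summed to 3291 to 4680 and 4352 to 5861, and sinusoidal endothelial markers (5 of 5) to 3036 to 3528 and 3471 to 4743. Stellate cell markers (5 of 5) summed to 5219 to 6335 and 4768 to 5499, and cholangiocyte markers (3 of 4, Epcam not in the table) to 72.5 to 154 and 75.3 to 149. Lymphocyte (3 of 3), neutrophil (2 of 2) and erythroid (2 of 2) markers had median sums of 210, 8.62 and 6636 in controls and of 255, 25.9 and 4148 in libraries labelled MED13-LKO. Averaged over diets 2 of 6 Kupffer cell and 3 of 5 endothelial markers were called higher and 0 lower (12.1% of all genes higher). In contrast, 2 of 5 stellate cell and 2 of 2 erythroid markers were called lower and 0 higher. With equal totals outside the Mup family 5 of 6 Kupffer cell and 5 of 5 endothelial markers were called higher. So were 2 of 5 stellate cell markers and 5975 of the 12388 genes tested. The 2 erythroid markers were still called lower. The part of these differences in the values of the Mup genes was not tested.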

How the data were processed

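Liver RNA-seq signal values for 12 mice were used. The authors trimmed reads with Trim Galore, estimated transcript counts with kallisto and used DESeq2, in versions 0.6.5, 0.46.0 and 1.24.0 and with mm10 per the labels. They deposited a signal table of normalized counts per Ensembl gene, whose scaling differs between genes as well as libraries. The transcript annotation given to kallisto is not given in the sources used here. The values are not whole numbers or multiples of a step per library, so no count test was run, and depth per library is unknown beyond the sums of normalized counts. Of 16346 identifiers, 16212 matched a symbol.

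The values were put on the log2(normalized count + 1) scale, and 12366 genes whose mean reached 10 were kept. One linear model of 6 groups was fitted to all libraries in limma 3.58.1 (R 4.3.3) with a trended empirical Bayes step and Benjamini-Hochberg adjustment over all genes tested. Genes with an adjusted p under 0.05 are called, tests are two-sided, and intervals are 95% limits from the moderated fit. The p-values rest on the spread between the 2 libraries of each group, pooled over all 6 groups and moderated across genes. They do not measure the spread of only the groups compared. The members and gene lists were chosen with earlier results of these data known. Named are all 10 members, the other Mup genes, up to 4 genes of each list with the highest mean, and the 5 genes most like the members' sum. Transcripts, coding sequences (principal isoforms) and positions come from GENCODE M21 on GRCm38, and promoter windows from RefSeq. Python 3.11.15, NumPy 2.4.6, pandas 2.3.3, Biopython 1.88 and matplotlib 3.10.9 were used for descriptions, alignments and plots. Results were recomputed with a pseudocount of 0.1 or 10, without the filter, with equal 75th percentiles, with equal totals outside the Mup family, with a replicate block, in fits of only the compared groups, leaving out each mouse and, added after seeing the data, leaving out the 4 fructose libraries. The gene lists were also counted with equal totals outside the Mup family, added after seeing the data. For the members' sum, a sum over every Mup gene and a sum per transcript length were also tried. Protein sequences were not used here.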

Additional observations from a re-analysis of the deposited data

How the results depend on the processing

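Counts of members called were within 1.5 times of the reported count in every alternative except the following. Fitting only the compared groups gave 1 in place of 8 for genotype with fructose, 5 in place of 0 for sucrose against fasting in controls and 1 in place of 0 in libraries labelled MED13-LKO, and leaving out the 4 fructose libraries gave 4 and 1 for the last 2. Leaving out each mouse in turn gave 5 to 7 members for genotype in the fasted state, 4 to 8 with sucrose, 5 to 9 with fructose, 8 to 9 averaged over diets, 0 to 1 for sucrose against fasting in controls and 0 to 0 for the other 7 comparisons. The log2 difference of the members' sum between genotypes was -2.99 fasted and -2.33 with sucrose, and moved to -2.71 and -2.08 with equal totals outside the Mup family. Without each mouse it ran from -3.22 to -2.75, -2.44 to -2.21 and, with fructose, -3.61 to -2.21. For feeding the same ranges of the sum were -1.12 to -0.65 (sucrose, control), -1.09 to 0.31 (fructose, control), -0.33 to -0.11 (sucrose, labelled MED13-LKO) and -0.72 to 0.10 (fructose, labelled MED13-LKO), and between the sugars -0.20 to 1.20 and -0.50 to 0.32. No called value of a member changed sign. Sign changes in which neither value was called occurred in 2 of 880 values in the settings that leave out no single mouse (Mup10, genotype with fructose and fructose against fasting in libraries labelled MED13-LKO, both with equal totals outside the Mup family) and in 79 of 1440 values when a mouse was left out. Over all genes, equal totals outside the Mup family gave 3052, 1793, 2322 and 6473 genotype calls (fasted, sucrose, fructose, averaged) in place of 1110, 746, 951 and 3127, and fitting only the compared groups gave 167 in place of 951 for genotype with fructose, 47 in place of 692 for fructose against fasting in controls and 478 in place of 807 in libraries labelled MED13-LKO. Between the sugars in controls 5 calls became 12 (pseudocount 0.1), 3 (pseudocount 10), 8 (no filter) or 0 (only the compared groups), and in libraries labelled MED13-LKO 5 became 8 (pseudocount 10). The 18 sucrose interaction calls became 8 both with only the compared groups and without the fructose libraries, and the 3 fructose interaction calls 0 (pseudocount 10), 7 (no filter) or 1 (only the compared groups). The cause of these changes was not tested.

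Replicate numbers from the titles showed no pairing of the mice, since correlations of same-numbered deviations over 15 pairs of groups ran from -0.14 to 0.08. The sample descriptions number the fed mice differently from the titles, and pairing or blocking by those numbers was not tested. With the replicate block, 6 members were called for genotype in the fasted state, 6 with sucrose, 7 with fructose and 9 averaged over diets, and 0 in every feeding, sugar and interaction comparison. Over all genes it took the calls between the sugars from 5 to 3 in each genotype and the interaction calls from 18 to 7 and from 3 to 1. With 2 mice per group, the 95% interval of a feeding difference of Mup7 reached 1.80 on the log2 scale to either side of its estimate.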
